A study of Gossypium hirsutum with 6 samples.

Results

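Neighbouring genes that changed together between virescent and green cotton leaves were described across 6 RNA sequencing libraries. Upland cotton (Gossypium hirsutum) carries an A and a D subgenome, and each gene identifier in the deposited table holds a chromosome label and a running number, such as Gh_D02G0079 on label D02. A gene was eligible when it reached 1 FPKM (fragments mapped to a transcript, scaled by its length and by the library's mapped total) in at least 3 libraries, averaged below 30 FPKM, and changed by at least 1 and less than 2 on the log2(FPKM + 1) scale between genotypes whose 3 libraries did not overlap. The stretch from Gh_D10G0184 to Gh_D10G0383 was left out. Of 65126 identifiers, 38766 with a chromosome label were tested, any in that stretch included, and 1509 met these conditions. The members are the 74 of them whose number stands directly next to that of another such gene with the same label and the same direction.

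The virescent group held 3 libraries from leaves of genotype MSmsv1v1, and the wild-type group held 3 libraries from leaves of genotype msmsv1v1. The series text names the first true leaf as the tissue and Yt30 as the virescent line. Both labels thus carry the v1v1 alleles and differ in the MS symbol. Nothing in the labels says whether a library came from 1 plant, from pooled plants or from separate plants, so spreads between libraries may be technical.

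Virescent plants have pale young leaves in which chloroplasts mature late, and the leaves green as they age. In plant genomes, genes that lie side by side may be tandem copies of one ancestor, may be read from a promoter between them, or may share nothing beyond their place. The deposited table does not pair identifiers with gene names, and 0 of the 65126 identifiers matched the RefSeq gene table used here, so no function is given for any gene, no sequence is shown and the leaf label could not be checked against marker genes. The numbers are taken to follow the order along a chromosome, which the table itself does not state.

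The values that chose the members are the genotype differences themselves, so these are given below as descriptions without a test. The difference of mean log2(FPKM + 1), virescent minus wild type, ran from 1.01 for Gh_D02G1607 to 1.92 for Gh_D12G1518 among rising members. Genes just outside the range that also stood next to an eligible gene of their direction were Gh_D05G3435, with a log2 difference of -0.9929, and Gh_D10G0497, with 2.0025. The most abundant member averaged 23.6 FPKM over the 6 libraries, and the nearest gene kept out by the ceiling averaged 31.6 FPKM.

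FPKM sums lay between 1019041.5 and 1068010.2 per library, and 41572 to 43109 genes reached 1 FPKM. Sequencing depth is unknown. Along the first principal component of the tested genes, which held 55.9% of the variance, the score of virescent 2 was 41.3 where virescent 1 and 3 had 57.0 and 59.3, and the score of wild type 2 was -24.9 where wild type 1 and 3 had -62.4 and -70.3. Both number-2 libraries thus stood toward the other genotype, and values without 1 or both of them are given for several results.

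The 74 members formed 36 runs of consecutive numbers, of which 34 were pairs and 2 held 3 genes. In 22 runs all genes were higher in virescent leaves, 45 members in all, and in 14 runs all genes were lower, 29 members in all. In such whole-leaf RNA, fewer cells of a type and less RNA per cell cannot be told apart. The median log2 difference was 1.41 in rising members and -1.44 in falling members, with a median of 0.05 over all 43104 tested genes. Members averaged 0.828 to 23.6 FPKM, with a median of 5.82 FPKM, against 4.95 FPKM for all eligible genes. All tested genes with a chromosome label, to which no ceiling applied, had a median of 6.07 FPKM. Without wild type 2 the conditions gave 123 members, 49 of them shared with the 74. Without virescent 2 they gave 25 rising and 55 falling members, 51 of these 80 shared. With a library left out, the condition that genotypes do not overlap is easier to meet, so nothing is read from a higher count. Members were also lost, so the list holds for these 6 libraries together and depends on single libraries.

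By limma across all tested genes (Benjamini-Hochberg adjusted p below 0.05), 44 of the 45 rising members were called higher and 23 of the 29 falling members lower. Among all tested genes 10.3% were called, 6.30% higher and 4.05% lower in virescent leaves. Since the members were chosen on this very contrast, nothing is read from their calls. The 67 calls in all became 15 without wild type 1, 30 without wild type 3 and 26 with the replicate number as a block. Both genes were uncalled in 2 falling pairs, on A12 and D12, whose libraries spread widely.

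**Figure D1:**
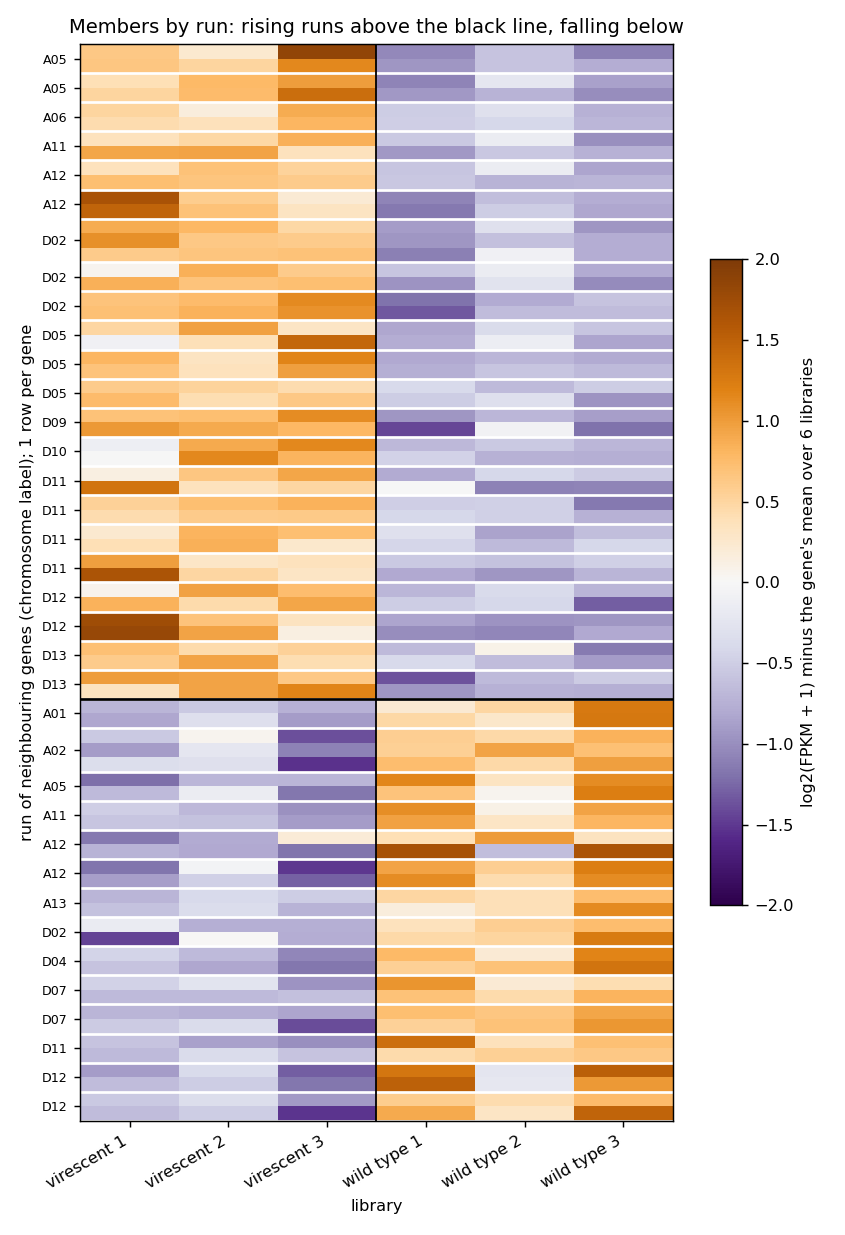
Each row is a member and each column a library, with colour giving log2(FPKM + 1) minus the gene's mean over the 6 libraries, from -2 (purple) to 2 (orange). White lines part the 36 runs, and the 22 rising runs stand above the black line and the 14 falling runs below it. Wild type 2 is the palest wild-type library in many rising runs, being the highest of its genotype in 30 of 45 rising members.

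The members were spread over 16 of the 26 chromosome labels. D11 carried 5 runs, and A12, D02 and D12 carried 4 each. The D subgenome held 23 runs, 16 rising and 7 falling, and the A subgenome 13 runs, 6 rising and 7 falling. Eligible genes were of like number in both, at 782 of 19726 tested D genes (3.96%) and 727 of 19040 tested A genes (3.82%). The tested D genes here include any of the left-out D10 stretch, which could not be eligible. Of the eligible genes, 6.01% on D labels and 3.71% on A labels had an eligible neighbour of the same direction. This difference was not tested.

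The longest rising run stood near the low-numbered end of D02 and held 3 genes. Gh_D02G0079 had 7.41, 6.91 and 5.37 FPKM in virescent libraries 1 to 3, against 1.45, 2.69 and 1.38 FPKM in wild-type libraries 1 to 3. Gh_D02G0080 had 6.96, 4.85 and 4.73 FPKM in virescent libraries, against 0.95, 1.45 and 1.21 FPKM in the wild type. Gh_D02G0081 had 8.75, 9.23 and 9.41 FPKM in virescent libraries, against 2.02, 5.05 and 2.79 FPKM in the wild type. Gh_D02G0081 was the most abundant of the 3 genes in every library, at 5.05 against 1.45 FPKM of Gh_D02G0080 in wild type 2. Wild type 2 was the highest wild-type library in each gene. Their log2 differences were 1.43 ± 0.20, 1.55 ± 0.17 and 1.30 ± 0.24 (limma SE). The gene numbered next after the run, Gh_D02G0082, differed by only 0.15 in the same direction.

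The falling run of 3 genes was on A02. Gh_A02G0258 had 6.89, 10.88 and 3.39 FPKM in virescent libraries, against 15.93, 14.70 and 19.28 FPKM in the wild type. Gh_A02G0259 had 1.91, 3.65 and 1.54 FPKM in virescent libraries, against 6.97, 9.43 and 7.84 FPKM in the wild type. Gh_A02G0260 had 3.86, 3.99 and 1.12 FPKM in virescent libraries, against 9.34, 7.48 and 11.08 FPKM in the wild type. In all 3 genes virescent 2 was the highest and virescent 3 the lowest virescent library. Their log2 differences were -1.24 ± 0.33, -1.47 ± 0.23 and -1.46 ± 0.33 (limma SE). Limma did not call Gh_A02G0258 (adjusted p = 0.05281). The difference of Gh_A02G0258 was -1.58 without virescent 2 and -0.86 without virescent 3, which is under the limit of 1.

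Among rising pairs, the one on D12 had the largest change. Gh_D12G1517 had 30.38, 14.02 and 10.82 FPKM in virescent libraries, against 4.25, 3.81 and 3.85 FPKM in the wild type. Gh_D12G1518 had 32.10, 17.15 and 9.40 FPKM in virescent libraries, against 3.70, 3.55 and 4.42 FPKM in the wild type. The 2 genes stood at nearly the same level in each library, with means over the 6 libraries that differed by a factor of 1.05. Virescent 1 was far above virescent 3 in both, while the wild-type libraries were close to each other. Log2 differences were 1.84 ± 0.32 and 1.92 ± 0.37 (limma SE). The genes numbered before and after this pair had log2 differences of -0.22 for Gh_D12G1516 and 0.17 for Gh_D12G1519, and the genotypes overlapped in both.

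The falling pair with the largest change was on A12. Gh_A12G1852 had 2.67, 6.98 and 1.92 FPKM in virescent libraries, against 15.10, 11.36 and 18.56 FPKM in the wild type. Gh_A12G1853 had 7.49, 10.32 and 5.42 FPKM in virescent libraries, against 32.96, 20.14 and 32.90 FPKM in the wild type. Both number-2 libraries lay toward the other genotype in both genes. Log2 differences were -1.84 ± 0.36 and -1.77 ± 0.26 (limma SE). The difference of Gh_A12G1852 was -2.265 without virescent 2 and -2.01 without wild type 2, both past the limit of 2. That of Gh_A12G1853 was -1.973 and -1.995, within the limit. Without both number-2 libraries the 2 genes differed by -2.44 and -2.20, past the limit.

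**Figure D2:**
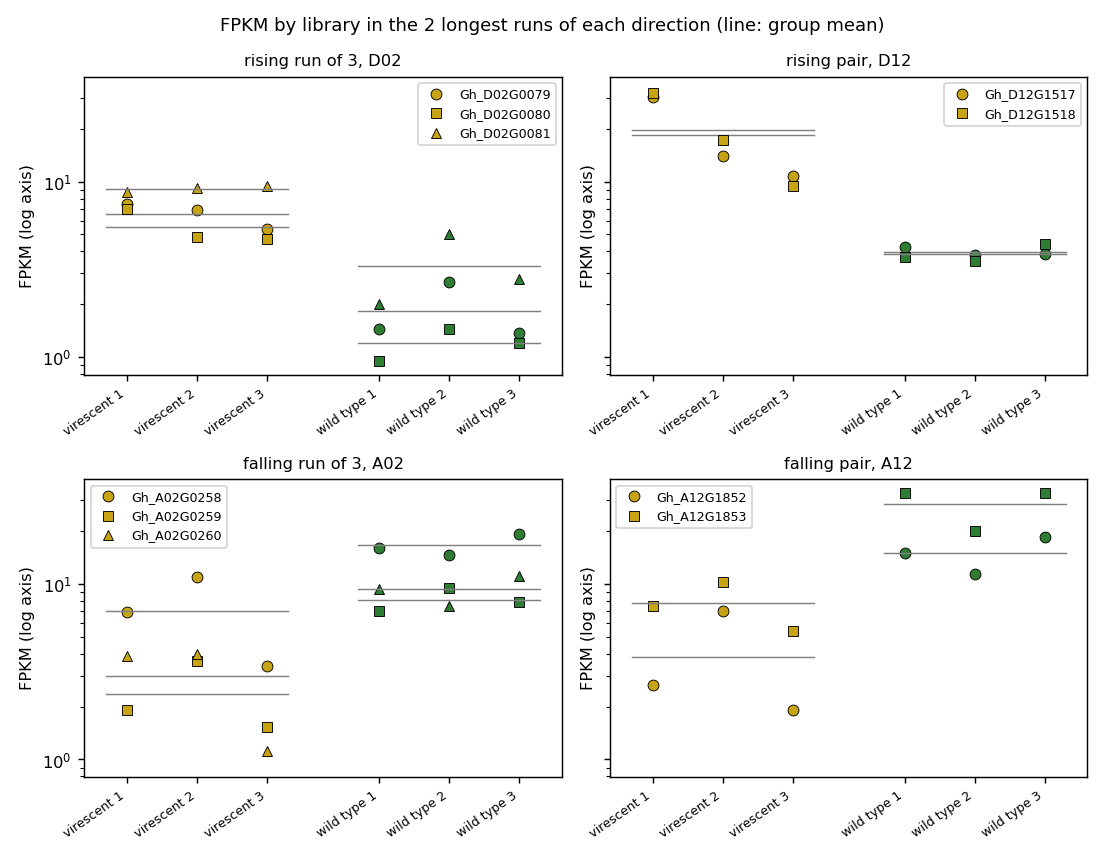
Each point is the FPKM of a gene in a library, on a log axis, with virescent libraries in yellow, wild-type libraries in green and grey lines at the mean of each group. The genes of the D02 run of 3 and of the A12 pair keep the same order in every library, and the D12 pair shares its high value in virescent 1, at 30.38 and 32.10 FPKM.

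The pair with the steadiest ratio between its genes was a rising one on D02. Gh_D02G2274 had 6.80, 7.26 and 9.66 FPKM in virescent libraries, against 1.13, 1.83 and 2.23 FPKM in the wild type. Gh_D02G2275 had 9.52, 10.56 and 12.60 FPKM in virescent libraries, against 1.54, 3.12 and 3.13 FPKM in the wild type. The second gene exceeded the first in all 6 libraries, and the log2 ratio of the 2 genes had an SD of 0.10 over the libraries. Across all 38 adjacent pairs this SD had a median of 0.33 and a highest value of 1.28.

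The steadiest falling pair was on A11. Gh_A11G0364 had 3.44, 2.90 and 2.15 FPKM in virescent libraries, against 12.32, 5.66 and 11 FPKM in the wild type. Gh_A11G0365 had 1.71, 1.66 and 1.16 FPKM in virescent libraries, against 6.84, 3.98 and 6.01 FPKM in the wild type. The first gene was the higher one in all 6 libraries, and both were lowest in virescent 3 and, within the wild type, lowest in wild type 2. The SD of their log2 ratio was 0.14. The gene numbered next, Gh_A11G0366, was higher in every virescent library than in any wild-type library and was not called by limma.

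Other pairs were far less alike. The falling pair with the highest summed level was Gh_A12G0968 and Gh_A12G0969. Gh_A12G0968 had 7.05, 9.35 and 19.56 FPKM in virescent libraries, against 22.64, 35.01 and 21.66 FPKM in the wild type. Gh_A12G0969 had 7.25, 6.82 and 5.01 FPKM in virescent libraries, against 42.74, 7.77 and 41.59 FPKM in the wild type. Wild type 2 was the highest library of the first gene and by far the lowest wild-type library of the second, just above the highest virescent value of that gene. This pair had the least steady ratio of all, with an SD of 1.28. Its log2 differences were -1.16 ± 0.35 and -1.80 ± 0.57 (limma SE). Without wild type 2 they were -0.95 and -2.57, the first under the limit of 1 and the second past that of 2.

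The most abundant rising pair was also on A12. Gh_A12G0126 had 16.38, 21.21 and 18.57 FPKM in virescent libraries, against 8.15, 11.25 and 6.64 FPKM in the wild type. Gh_A12G0127 had 29.63, 28.54 and 27.20 FPKM in virescent libraries, against 11.65, 10.28 and 10.39 FPKM in the wild type. Both groups were compact in the second gene, with SDs of 1.22 FPKM in virescent and 0.761 FPKM in wild-type libraries (n = 3 each), and its log2 difference of 1.32 ± 0.11 (limma SE) had the smallest SE among rising members. The first gene differed by 1.05 ± 0.19.

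Neighbours could differ widely in level and still be members. Gh_D11G0781 had 30.76, 34.95 and 38.00 FPKM in virescent libraries, against 14.52, 14.57 and 8.83 FPKM in the wild type. Gh_D11G0782 had 2.79, 3.29 and 3.31 FPKM in virescent libraries, against 1.12, 1.03 and 0.68 FPKM in the wild type. The first gene was 11.6 times as abundant over the 6 libraries, yet virescent 3 was the highest virescent library and wild type 3 the lowest wild-type library of both.

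Among falling pairs the widest step in level was on D02. Gh_D02G0516 had 0.50, 0 and 0 FPKM in virescent libraries, against 1.14, 1.5 and 1.83 FPKM in the wild type. Gh_D02G0517 had 2.18, 7.71 and 4.08 FPKM in virescent libraries, against 10.94, 11.32 and 19.68 FPKM in the wild type. No fold is given for the first gene, which is listed at 0 in 2 virescent libraries. Only 1 other member had a value of 0 in any library. Low levels were common, since 12 of the 45 rising members averaged under 1 FPKM in the wild type and 10 of the 29 falling members averaged under 1 FPKM in virescent leaves. The log2(FPKM + 1) scale understates such changes.

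The other rising pairs covered a wide range of levels. On D09 both genes were well expressed, with 16.96 to 27.98 FPKM in virescent libraries and 2.87 to 8.89 FPKM in wild-type libraries. A pair on D02 ranged from 7.44 to 24.3 FPKM in virescent libraries and from 3.73 to 10.61 FPKM in the wild type. Values on D12, in a pair other than the one named, were 3.80 to 7.88 FPKM in virescent and 0.56 to 2.49 FPKM in wild-type libraries. In these 3 pairs the ranges of the genotypes, taken over both genes, overlapped on D02 alone. The remaining pairs on A06 and A11 joined a weak to a stronger gene, the weaker one under 4 FPKM throughout. On A06 the values ran from 1.48 to 16.54 FPKM in virescent libraries and from 0.33 to 6.49 FPKM in the wild type. On A11 they ran from 1.54 to 13.21 FPKM in virescent libraries and from 0 to 4.0 FPKM in the wild type.

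Low-level rising pairs stood on D10, D11 and D13. The D10 pair had 1.08 to 4.56 FPKM in virescent libraries, against 0.39 to 0.82 FPKM in the wild type. One D11 pair had 1.54 to 8.07 FPKM in virescent libraries, against 0.36 to 0.76 FPKM in the wild type. Both D13 pairs were also weak, with 2.60 to 4.51 and 1.84 to 6.91 FPKM in virescent libraries, against 0.21 to 1.81 and 0.16 to 1.75 FPKM in the wild type. In all 4 pairs every virescent value of either gene exceeded every wild-type value of either gene. A further D11 pair joined genes that differed by a factor of 14.8, the widest of all 38 adjacent pairs, with 1.10 to 21.47 FPKM in virescent and 0.10 to 9.32 FPKM in wild-type libraries. A D05 pair, with 1.76 to 22.4 FPKM in virescent and 0.64 to 8.38 FPKM in wild-type libraries, held the only rising member that limma did not call.

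Of the other falling pairs, those on A01, A13 and D04 were weak. On A01 the values were 0.56 to 1.39 FPKM in virescent libraries, against 2.05 to 6.29 FPKM in the wild type. The A13 pair had 0.17 to 0.69 FPKM in virescent libraries, against 1.42 to 3.73 FPKM in the wild type. On D04 they were 0.05 to 1.37 FPKM in virescent libraries, against 2.46 to 6.28 FPKM in the wild type. None of these 3 pairs exceeded 1.4 FPKM in any virescent library. A D11 pair was more abundant, with 1.89 to 3.14 FPKM in virescent libraries, against 5.27 to 15.0 FPKM in the wild type. On A05, 1 falling pair had 0.07 to 4.89 FPKM in virescent libraries, against 2.09 to 14.33 FPKM in the wild type.

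Falling pairs on D07 and D12 joined genes of unlike levels. The pair at the low-numbered end of D07 had 0.14 to 4.12 FPKM in virescent libraries, against 1.57 to 12.93 FPKM in the wild type. The other D07 pair had 1.19 to 12.73 FPKM in virescent libraries, against 5.13 to 35.4 FPKM in the wild type. On D12, 1 pair had 0.33 to 9.81 FPKM in virescent libraries, against 3.74 to 21.9 FPKM in the wild type. The other D12 pair, of which limma called neither gene, had 0.34 to 4.32 FPKM in virescent libraries, against 1.61 to 18.92 FPKM in the wild type. Its lowest wild-type value was that of wild type 2 in the weaker gene.

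Over the 38 adjacent pairs, the 2 genes' log2 differences themselves differed by a median of 0.18 and by at most 0.64. That closeness is in part set by the selection, which confined both to a range of 1. The more abundant gene of a pair exceeded the other by a median factor of 1.89, from 1.04 to 14.8. In 21 pairs the factor was under 2 and in 8 it was above 5. No pair had the same FPKM in all 6 libraries. Near-identical neighbouring copies may share reads, and whether any members do was not tested.

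**Figure D3:**
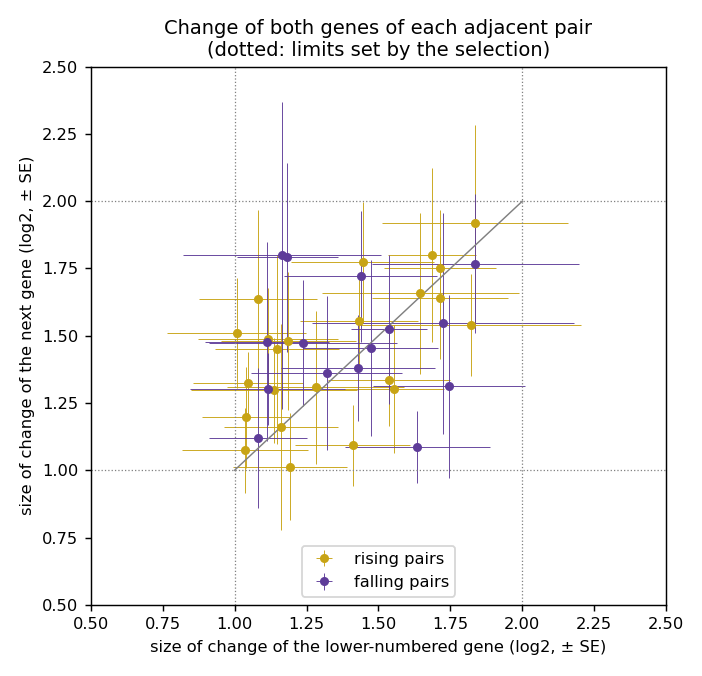
Each point is 1 of the 38 adjacent pairs, with the size of the log2 change of the lower-numbered gene on the x axis and that of the next gene on the y axis, both with limma SEs. Dotted lines mark the limits of 1 and 2 set by the selection, the grey line marks equal change, and the SEs of many pairs are as wide as their distance from that line.

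Levels within the wild type alone are not the contrast that chose the members, although the ceiling and the filter bounded them. The mean log2(FPKM + 1) of adjacent members over the 3 wild-type libraries differed by a median of 0.75 (quartiles 0.31 and 1.49). In the 18279 other adjacent pairs of tested genes under the same ceiling it differed by a median of 1.03 (quartiles 0.47 and 1.74). Eligible genes of the same direction at number distances of 20 to 50, 534 pairs, differed by 0.995 (quartiles 0.49 and 1.76). Eligible neighbours of opposite direction, 11 pairs, differed by 1.21. Adjacent members thus had the smallest median of the 4 classes, with quartiles that overlapped those of the others, and the difference between classes was not tested. The median of adjacent members was 0.93 at a pseudocount of 0.1 and 0.84 without wild type 2. Medians of the other classes are not given at these settings.

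Deviations of libraries from their own genotype's mean were bounded by the selection, since the genotypes could not overlap in a member, but their agreement between neighbours was not asked for. The other adjacent tested pairs did not have to meet that condition, while the distant eligible pairs did. Over 6 libraries, these deviations of adjacent members correlated with a median Pearson's r of 0.653 (quartiles 0.006 and 0.931). The median was 0.065 in the other adjacent tested pairs and 0.410 in same-direction eligible pairs 20 to 50 numbers apart. The value of r exceeded 0.8 in 14 of 38 adjacent member pairs (36.8%), in 7.62% of the other adjacent tested pairs and in 18.4% of the distant same-direction pairs. These are descriptions over 6 values each, whose libraries are shared by all genes, and a library that stands apart moves many genes at once.

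What part the number-2 libraries had in these values was not tested. In falling genes the median r was 0.743 in 15 adjacent pairs and 0.631 in 239 pairs 20 to 50 numbers apart. An r above 0.8 was found in 33.3% of the former and 30.1% of the latter. Virescent 2 was the highest virescent library in 19 of 29 falling members (65.5%) and in 71.7% of the 672 falling eligible genes with no such neighbour. In rising genes the medians were 0.501 in 23 adjacent pairs and 0.141 in 295 distant pairs, with r above 0.8 in 39.1% and 8.81%. Wild type 2 was the highest wild-type library in 30 of 45 rising members (66.7%) and in 58.7% of the 763 other rising eligible genes. The median over all 38 pairs was 0.671 without virescent 2 and 0.670 without wild type 2, against 0.653 with every library kept. It moved further without virescent 3, to 0.806, and without wild type 3, to 0.556.

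The pairs with the closest shared deviations were Gh_A11G0364 and Gh_A11G0365, with r = 0.985, and Gh_D05G1111 and Gh_D05G1112, with r = 0.983. At the other end stood a rising D11 pair with r = -0.836, named here after its values were seen. Gh_D11G0394 had 20.18, 29.41 and 35.90 FPKM in virescent libraries, against 10.14, 13.54 and 12.49 FPKM in the wild type. Gh_D11G0395 had 19.30, 9.37 and 10.44 FPKM in virescent libraries, against 7.05, 2.82 and 2.85 FPKM in the wild type. Library 1 of either genotype was the lowest of its group in the first gene and the highest in the second, while virescent 3 was above virescent 2 in both.

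**Figure D4:**
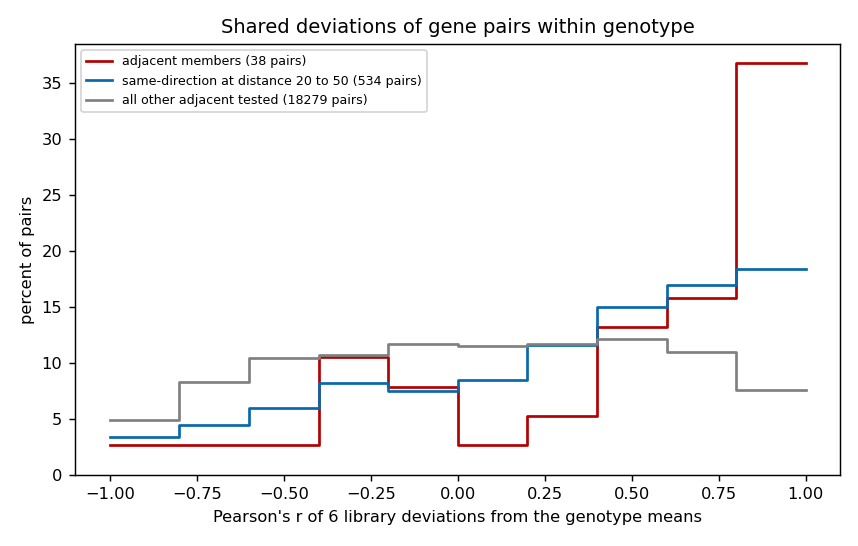
The x axis gives Pearson's r between 2 genes of their 6 library deviations from the genotype means, in steps of 0.2, and the y axis the percent of pairs in each step. Adjacent members (red, 38 pairs) have 36.8% of pairs above 0.8, same-direction eligible pairs 20 to 50 numbers apart (blue, 534 pairs) 18.4%, and other adjacent tested pairs (grey, 18279 pairs) 7.62%.

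Any neighbour that met the conditions in the run's direction was counted into the run, so the genes beside a run are those that did not meet them. Of the 72 places directly before or after a run, 9 had no identifier in the table, 19 held a gene below the FPKM filter and 44 held a tested gene. The genotypes overlapped in 26 of the tested genes, 13 changed in the run's direction without overlap by less than 1, and 5 changed in the other direction without overlap. Limma called 3 of the 44 in the run's direction (6.82%) and 1 in the other, where 6.30% of all tested genes were called higher and 4.05% lower. That background holds eligible genes, which made up 1293 of its 4459 calls in either direction. A gene directly beside a run could not be eligible in the run's direction. The shares are thus of unlike sets, and nothing is read from how close they are. Scaling each library to the same sum or by the median ratio left 1 call in the run's direction, and at a filter of 5 FPKM there were 4 calls in 27 tested flanking genes.

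On the A12 falling pair's high-numbered side, Gh_A12G1854 had 7.31, 11.70 and 6.79 FPKM in virescent libraries, against 19.84, 12.78 and 18.12 FPKM in the wild type, a log2 difference of -0.91 ± 0.23 (limma SE, adjusted p = 0.04665). It was called in 7 of 14 alternative fits, with adjusted p from 0.008602 to 0.1617. The rising D11 pair Gh_D11G0394 and Gh_D11G0395 had a called gene on either side. Gh_D11G0393 had 18.14, 20.46 and 20.22 FPKM in virescent libraries, against 13.92, 14.55 and 13.98 FPKM in the wild type, a log2 difference of 0.44 ± 0.11 (limma SE, adjusted p = 0.04734, from 0.0375 to 0.1528 over the alternatives, with 2 of 14 fits calling it). Gh_D11G0396 had 6.49, 6.13 and 5.15 FPKM in virescent libraries, against 3.54, 4.03 and 3.95 FPKM in the wild type, a log2 difference of 0.51 ± 0.13 (limma SE, adjusted p = 0.04625, from 0.04535 to 0.153 over the alternatives, with 4 of 14 fits calling it). These 4 consecutive D11 genes were all higher in every virescent library than in any wild-type library. The flanking gene called in the other direction, Gh_D07G1873, had 7.53, 6.58 and 5.94 FPKM in virescent libraries, against 3.16, 4.70 and 3.36 FPKM in the wild type, beside a falling pair (limma adjusted p = 0.03503, from 0.01862 to 0.1282 over the alternatives, with 7 of 14 fits calling it).

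With the sign turned so that a positive value follows the run, the log2 change of the tested flanking genes had a median of 0.18 (quartiles -0.16 and 0.52). At 2 to 5 numbers away the medians were 0.04, 0.11, 0.03 and -0.01. Directly before a run, 10 of 20 tested genes changed toward it, with a median of 0.02, and directly after it 18 of 24, with a median of 0.36. No strand is given in the table, so the side has no reading by gene orientation, and the difference between the sides was not tested.

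**Figure D5:**
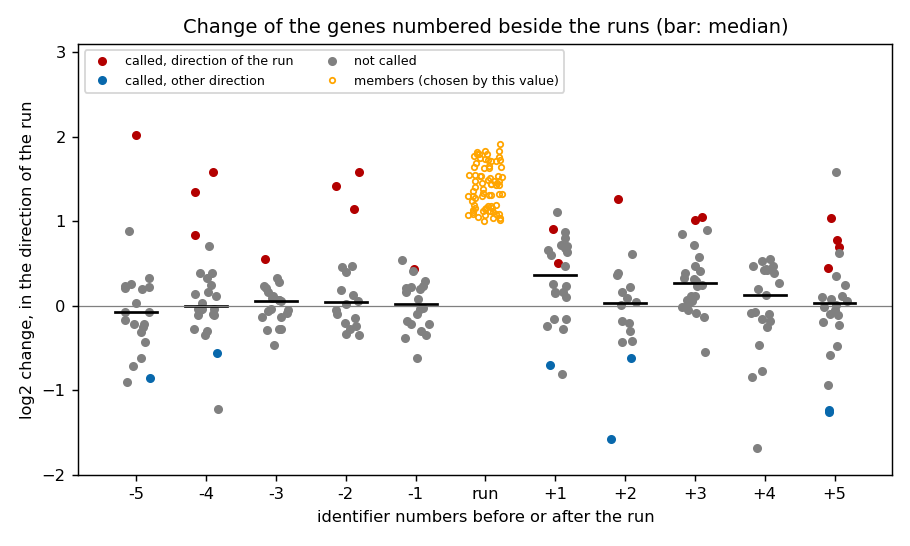
The x axis gives the distance in identifier numbers before or after a run, and the y axis the log2 change between genotypes, signed so that positive values follow the run. Points are tested genes, bars are medians, and open orange points are the 74 members, which were chosen by this value. Flanking genes centre close to 0, with the highest median, 0.36, directly after the runs.

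Eligible genes also met one another a few numbers apart. At a number distance of 1, 23 pairs both rose, 15 both fell and 11 went opposite ways, so that 77.6% shared a direction, and the first counts are the members themselves. The share was 67.4% of 46 pairs at a distance of 2, 69.8% of 43 at 3, 67.5% of 40 at 4 and 52.2% of 46 at 5. At distances of 20 to 50 it was 47.9%, with 295 pairs that both rose, 239 that both fell and 581 of opposite direction. These shares were not tested.

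The A and D subgenomes derive from related ancestors, and many genes have a counterpart on the other one, but the table does not pair such copies. Places were therefore compared by the number in the identifier over the highest number of its label. At a distance of 0.02 in this measure, no A run had a D run of the same chromosome number and direction, and at 0.05 there were 3 such pairs of runs, all rising. The closest A and D runs of one chromosome number went opposite ways, namely the falling A11 pair at 0.1103 and the rising D11 pair Gh_D11G0394 and Gh_D11G0395 at 0.1115. Of 41 combinations of an A run and a D run of one chromosome number, at any place, 20 shared a direction. Gene content at these places was not compared.

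The first of these linked Gh_A12G1395 and Gh_A12G1396, at a place of 0.51, with the D12 pair described above, at 0.53. Gh_A12G1395 had 28.85, 13.25 and 9.96 FPKM in virescent libraries, against 3.50, 5.12 and 4.52 FPKM in the wild type. Gh_A12G1396 had 14.95, 8.34 and 6.18 FPKM in virescent libraries, against 1.59, 3.04 and 2.26 FPKM in the wild type. Virescent 1 was the highest and virescent 3 the lowest virescent library in all 4 genes, 2 on each label, and the runs' mean deviations correlated at r = 0.900. For scale, r of single genes exceeded 0.8 in 8.81% of rising eligible pairs 20 to 50 numbers apart, and in 18.4% with falling pairs included. Whether genes of such A and D runs share reads was not tested.

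The second linked Gh_A05G0993 and Gh_A05G0994, at 0.25, with Gh_D05G1111 and Gh_D05G1112, at 0.28. Gh_A05G0993 had 6.64, 4.87 and 16.96 FPKM in virescent libraries, against 1.41, 2.3 and 1.30 FPKM in the wild type. Gh_A05G0994 had 14.37, 12.97 and 20.57 FPKM in virescent libraries, against 4.07, 5.49 and 4.72 FPKM in the wild type. Virescent 3 was the highest and virescent 2 the lowest virescent library in both. Gh_D05G1111 had 18.15, 12.72 and 24.03 FPKM in virescent libraries, against 5.29, 5.77 and 5.34 FPKM in the wild type. Gh_D05G1112 had 15.90, 12.42 and 19.81 FPKM in virescent libraries, against 5.21, 6.08 and 5.66 FPKM in the wild type. The D05 genes had the same order of virescent libraries, and wild type 2 was the highest wild-type library in all 4 genes. Mean deviations of the 2 runs correlated at r = 0.929.

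In the third, deviations were not alike. Gh_A05G1878 and Gh_A05G1879, at 0.47, ranged from 4.76 to 37.95 FPKM in virescent libraries and from 1.07 to 8.04 FPKM in the wild type. Gh_D05G1719 and Gh_D05G1720, at 0.44, ranged from 1.48 to 7.36 FPKM in virescent libraries and from 0.16 to 2.96 FPKM in the wild type. Their mean deviations correlated at r = -0.150, and the A05 genes were highest in virescent 3, in which the D05 genes were not.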

How the data were processed

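RNA of leaves was sequenced in 3 virescent and 3 wild-type libraries, grouped by the genotype label. The authors deposited FPKM values for 65126 identifiers, per the file headers, rounded to 2 decimals. How reads were aligned, counted and assigned to strands, and with which annotation, is not stated. Per the submitters' processing notes the build was mm10, which is of mouse and not of cotton. FPKM are not counts. Transcript lengths are not given, so reads could not be recovered, depth is unknown, and no counting intervals are given. The members and lists were chosen with earlier results of these data known.

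The genotype difference was fitted by limma 3.58.1 (R 4.3.3) to log2(FPKM + 1) with no covariate, a trended empirical Bayes variance and Benjamini-Hochberg adjustment over the 43104 genes with at least 1 FPKM in at least 3 libraries. On simulated data of these genes the fit recovered 52% of 100 genes given a log2 change of 1. It recovered 89% of 100 given a change of 2. The changed genes were drawn from those with a mean log2(FPKM + 1) above 2, so weaker members are not covered. Of 150 calls, 9 fell on unchanged genes. Noise was drawn for each gene alone, without shifts shared within a library, and far fewer genes changed than the 4459 called in the data. Neither the recovery nor the share of false calls need hold for the data. Named genes are the members of the 2 longest runs in each direction and, in each direction, the pair with the steadiest ratio, the highest summed level and the largest level difference. Genes of runs at like places on A and D labels and flanking genes called by limma are also named. A pair with opposite deviations was named after its values were seen. Planned gene lists and cell type markers could not be filled, since no identifier has a name. Alternatives were another pseudocount, other filters, other scalings, no trend, a replicate block and libraries left out.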

Additional observations from a re-analysis of the deposited data

How the results depend on the processing

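A filter of 5 FPKM gave 27 members (16 rising, 11 falling, 13 runs), and limma called 41 of the 43 reported members it tested. Without the upper end of 2 there were 114 members, 51 of them falling, in 56 runs, and all 74 remained. Omitting both number-2 libraries, a choice made once the values were known, gave 112 members, 50 of them falling and 33 shared. Leaving out 1 library at a time gave 70 to 123 members, 25 to 76 rising, 25 to 55 falling and 34 to 60 runs. With fewer libraries, non-overlap of the genotypes is easier to meet, so these counts are not under like conditions. The highest counts of members, rising members and runs came without wild type 2, and the lowest of rising and the highest of falling members without virescent 2. Members called numbered 15 to 67 with 1 library left out, 15 without wild type 1 and 30 without wild type 3. With the replicate number as a block 26 were called. For same-numbered libraries the r of their deviations was 0.081, -0.278 and -0.242, and the number-1 libraries alone were most alike to each other. Whether same-numbered libraries shared more than a number was not tested, and these r cannot tell, since both number-2 libraries stood toward the other genotype. Flanking genes called in the run's direction numbered 0 without a filter and under the block, 1 under either rescaling and without the trend, 4 of 27 tested at 5 FPKM, and 0 to 3 with 1 library left out. The median level difference was 0.926 at a pseudocount of 0.1, 0.48 at 5 FPKM (14 pairs), 0.839 without the number-2 libraries and 0.732 to 0.839 with 1 left out. The median r of deviations was 0.556 to 0.806 with 1 library left out. It was not computed without both number-2 libraries, where 2 libraries a genotype give too few values. For it and for the level difference, an unfiltered fit was not run, as every member passes the filter. Runs at like places numbered 3 at a distance of 0.05 and 0 at 0.01. None of 304 refits of the 22 named genes turned a sign, which the selection largely fixed, and 55 lost the call. The cause of these changes was not tested. Depth is unknown, so no limit by depth can be given.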
